A study of Homo sapiens with 8 samples.

Results

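The genes described here are AKR1B1, SLC5A3, MRPS6, SLC6A6 and NFAT5, taken by symbol from the 8 deposited count tables. They are 5 of the 15041 genes listed, and all 5 were among the 12456 genes with enough counts to be tested. They were put together with results of these data known: AKR1B1 and SLC5A3 had low levels in irradiated cells without the knockdown, MRPS6 overlaps SLC5A3 on the genome, and SLC6A6 and NFAT5 belong to the same osmotic pathway. The values of the cells without the knockdown therefore describe the genes and are not offered as a test.

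The study profiled single cells of MDA-MB-231, an established human line of triple-negative, mesenchymal breast cancer. The 4 groups, of 2 libraries each, were untreated WT cells, WT cells taken 4 h after 5 Gy of ionizing radiation, untreated ATM knockdown cells, and ATM knockdown cells taken 4 h after 5 Gy. ATM is the kinase that signals DNA double-strand breaks. Cells were picked by mouth pipette, amplified by a modified Smart-seq2 method and made into libraries of 3′ mRNA ends, and the labels name the same DMEM medium with fetal bovine serum for all groups. How the knockdown was made, and whether the knockdown cells are 1 clone, is not given in the sources used here. Nothing in the labels tells whether the 2 libraries of each group derive from independent cultures, so the p-values reflect differences among these libraries only, and those may be technical.

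Cells in hypertonic surroundings take up or make small organic osmolytes that balance the outside without disturbing proteins. AKR1B1 (aldose reductase) makes sorbitol from glucose, SLC5A3 (SMIT1) imports myo-inositol with sodium, and SLC6A6 (TauT) imports taurine. NFAT5, also called TonEBP, is the transcription factor that drives these genes through tonicity-responsive enhancers (TonE), and ATM is among the kinases reported to act on it under high salt. MRPS6 is a protein of the small subunit of the mitochondrial ribosome and has no known part in osmolyte transport, although its gene overlaps SLC5A3. RefSeq gives both genes the same start, while in GENCODE 29 their starts lie 346 bases apart.

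The window before the RefSeq start is shown first, because SLC5A3 and MRPS6 are read together throughout. RefSeq's promoter table for GRCh38.p14 held 3 of the 5 genes, AKR1B1, SLC5A3 and MRPS6. The 250 bases before the RefSeq start of SLC5A3 and of MRPS6 were the same window, chr21:34073328-34073577 on the plus strand. AKR1B1 had 2 annotated starts, and the window printed lies at chr7:134459101-134459350 on the minus strand. Capitals mark matches to GGAAA, the core of NFAT-type sites, and to GGGCGG, the GC box, on either strand (TTTCC and CCGCCC when read on the printed strand), with overlapping matches all counted.
SLC5A3 and MRPS6: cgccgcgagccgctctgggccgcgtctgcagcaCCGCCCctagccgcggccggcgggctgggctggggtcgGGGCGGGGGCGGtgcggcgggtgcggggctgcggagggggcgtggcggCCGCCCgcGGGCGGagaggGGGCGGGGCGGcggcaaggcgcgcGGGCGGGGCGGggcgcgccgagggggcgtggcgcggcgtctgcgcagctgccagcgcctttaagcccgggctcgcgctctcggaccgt
AKR1B1: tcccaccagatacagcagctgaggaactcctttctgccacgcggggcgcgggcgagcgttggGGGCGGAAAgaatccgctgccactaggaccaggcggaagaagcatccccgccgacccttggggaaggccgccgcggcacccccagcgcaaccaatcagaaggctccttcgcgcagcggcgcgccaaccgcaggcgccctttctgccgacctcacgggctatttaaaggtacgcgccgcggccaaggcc
The SLC5A3 and MRPS6 window was 84.8% G or C and held 9 GC boxes and 0 GGAAA matches. The AKR1B1 window was 68.0% G or C and held 1 GC box and 1 GGAAA match, which overlap each other 184 bases before the start. The window at the other AKR1B1 start, chr7:134459240-134459489, was 50.8% G or C with 2 GGAAA matches and 1 GC box. Of 35116 RefSeq promoter windows of this length, 55.6% held GGAAA, 42.6% held GGGCGG and 4.16% held the TonE consensus, and the median window was 58.0% G or C. None of these 3 windows held a TonE match or TGGAAA, which says only that those letters are not in these windows.

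In GENCODE 29 (hg38), AKR1B1 (ENSG00000085662) spans chr7:134442350-134459284 on the minus strand. SLC5A3 (ENSG00000198743) spans chr21:34073570-34106262 and MRPS6 (ENSG00000243927) chr21:34073224-34143034, both on the plus strand. SLC6A6 (ENSG00000131389) spans chr3:14402576-14489349 and NFAT5 (ENSG00000102908) chr16:69565094-69704666, both on the plus strand. The annotated exons of SLC5A3 and MRPS6 share 273 bases, which is 2.36% of the exonic bases of SLC5A3 and 6.35% of those of MRPS6. Their 3′ ends, where these libraries were made, lie 36.8 kb apart. Whether the authors' counting split reads of shared exons is not given in the sources used here, and AKR1B1 has 7 named pseudogenes, MRPS6 has 2 and SLC6A6 has 1, so their counts are uncertain to that extent.

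Of 378 cells, 363 had at least 1000 detected genes and 5000 counts and were kept. All 15 cells left out were knockdown cells. Library totals ran from 9321268 counts, in irradiated WT library 1, to 24256471, and no cell was shared between libraries. ATM, the targeted gene, stood at 29.1 to 58.2 CPM (counts scaled to a library total of 1000000) in WT. The knockdown libraries held 12.6, 13.6, 13.9 and 31.8 CPM of ATM, and the last of these, untreated knockdown library 2, lay inside the WT range. ATM did not pass the test between genotypes (adjusted p = 0.157 untreated and 0.109 irradiated, edgeR's quasi-likelihood test). The 8 markers of the line summed to 14167 to 16044 CPM in WT and 10328 to 11803 CPM in knockdown libraries, and the markers expected to be low to 78.6 to 133 CPM, with ESR1 not listed. The 8 markers did not move together. By the same test, S100A4, LGALS1 and MSN were lower in untreated knockdown than in untreated WT (log2 difference -0.96, -1.22 and -0.65). CD44 and TFPI2 were higher (0.71 and 1.01), and VIM, AXL and CAV1 did not pass. Of the low markers, EPCAM was higher, at 15.6 and 27.4 CPM in untreated WT and 55.0 and 51.2 CPM in untreated knockdown (adjusted p = 0.0179, same test). The 4 WT library titles share a suffix and the 4 knockdown titles another, so handling and genotype cannot be told apart.

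AKR1B1, SLC5A3 and MRPS6 all stood highest in untreated WT cells and several-fold lower in irradiated WT cells, and all 3 were low in the knockdown whether or not the cells were irradiated. SLC6A6 and NFAT5 did not share that pattern. In the knockdown, the only comparison tested for these genes, 0 of the 5 passed the test for irradiation. Levels below are counts summed over the cells of a library, in CPM after TMM scaling, which corrects library totals for their composition. Fitted differences are log2 ratios from 1 edgeR model of the 4 groups. Their standard error (SE) was worked back from the test, as the absolute log2 difference divided by the square root of the quasi-likelihood F statistic.

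**Figure D1:**
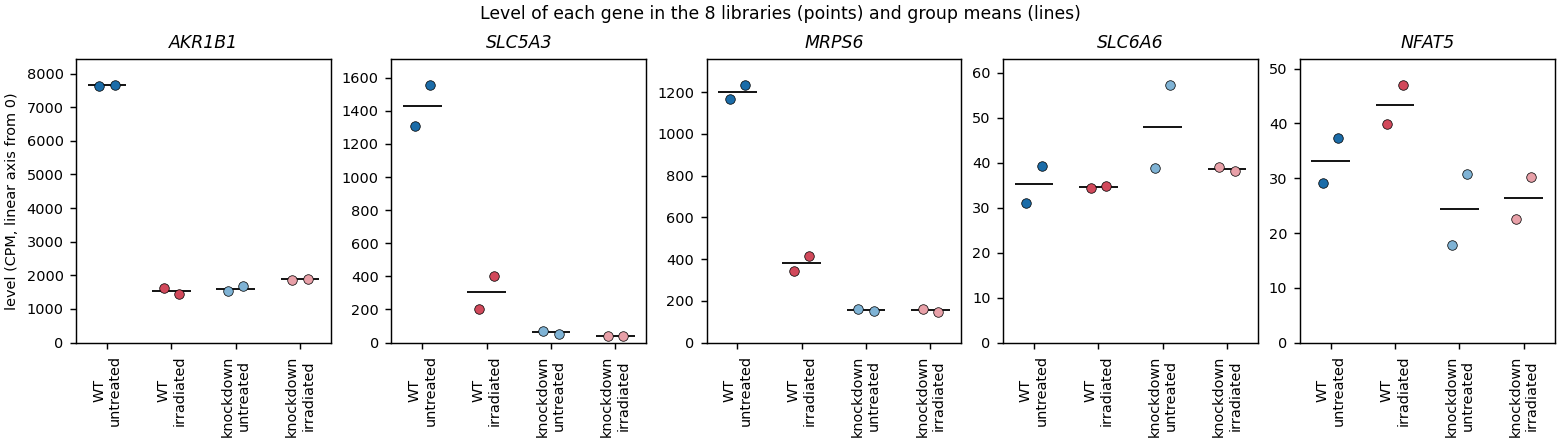
Level of each of the 5 genes in CPM (vertical axes, linear from 0, a scale for each gene) in the 4 groups; points are libraries and lines group means. AKR1B1 stood at 7639 and 7663 CPM in untreated WT and at no more than 1901 CPM elsewhere, SLC5A3 and MRPS6 were likewise highest in untreated WT, and SLC6A6 and NFAT5 were not.

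Among the enzymes and transporters that supply osmolytes, AKR1B1 was at 7639 CPM in library 1 and 7663 CPM in library 2 of untreated WT cells (7651 ± 17.3, mean ± SD, n = 2). In irradiated WT cells it was at 1625 and 1445 CPM (1535 ± 128, n = 2). These groups did not overlap, and the irradiated WT level was 4.98-fold lower (log2 difference -2.32, SE 0.102). Untreated knockdown libraries held AKR1B1 at 1537 and 1675 CPM (1606 ± 97.4, n = 2), which interleaves with the irradiated WT libraries. The fitted untreated knockdown level was 4.76-fold below untreated WT (log2 difference -2.25, SE 0.102). Irradiated knockdown libraries were at 1865 and 1901 CPM (1883 ± 25.2, n = 2), above both other low groups. The order of AKR1B1 was thus untreated WT, irradiated knockdown, and then untreated knockdown and irradiated WT, which overlapped. The step between irradiated and untreated knockdown did not pass its test (adjusted p = 0.493, edgeR's quasi-likelihood test). Irradiated and untreated knockdown libraries did not overlap in 39.6% of all genes.

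SLC5A3, the myo-inositol transporter, ran from 38.8 to 1557 CPM, the widest range of the 5 genes as a ratio of highest to lowest. It was at 1306 and 1557 CPM in untreated WT (1432 ± 177, n = 2) and at 206 and 404 CPM in irradiated WT (305 ± 140, n = 2). The WT difference was -2.23 on the log2 scale (SE 0.247), or 4.69-fold lower after irradiation. The irradiated WT libraries of SLC5A3 lay far apart: without library 1, the shallowest of the 8, the log2 difference was -1.82, and without library 2 it was -2.80. Knockdown cells held far less SLC5A3 than either WT group. The untreated knockdown libraries were at 71.9 and 52.9 CPM (62.4 ± 13.4, n = 2) and the irradiated ones at 42.5 and 38.8 CPM (40.7 ± 2.61, n = 2). Untreated knockdown stood 23.0-fold below untreated WT (log2 difference -4.52, SE 0.275), and irradiated knockdown 7.51-fold below irradiated WT (log2 difference -2.91, SE 0.257). No 2 groups of SLC5A3 overlapped, in the order untreated WT, irradiated WT, untreated knockdown, irradiated knockdown. How many genes part in this way was not counted. With 2 libraries a group, irradiated and untreated libraries did not overlap in 44% of all genes in WT and 39.6% in the knockdown. The last step, between untreated and irradiated knockdown, did not pass its test (adjusted p = 0.457, edgeR's quasi-likelihood test).

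MRPS6, the mitochondrial ribosomal gene that overlaps SLC5A3, was at 1169 and 1235 CPM in untreated WT (1202 ± 46.4, n = 2) and at 343 and 415 CPM in irradiated WT (379 ± 51.2, n = 2). That is 3.17-fold lower after irradiation (log2 difference -1.66, SE 0.145). Untreated knockdown libraries held 159 and 152 CPM (156 ± 4.49, n = 2) and irradiated ones 162 and 146 CPM (154 ± 11.5, n = 2). The knockdown groups overlapped each other and lay below both WT groups. Against WT, the knockdown was 7.73-fold lower untreated (log2 difference -2.95, SE 0.152) and 2.46-fold lower irradiated (log2 difference -1.30, SE 0.144). MRPS6 thus shared with SLC5A3 the order untreated WT, irradiated WT and knockdown, with smaller differences. Unlike those of SLC5A3, its knockdown groups did not part.

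The ratio of SLC5A3 counts to MRPS6 counts was not constant, which gives the extent to which the pair parted. It was 1.12 and 1.26 in the untreated WT libraries, 0.600 and 0.974 in irradiated WT, 0.453 and 0.347 in untreated knockdown, and 0.262 and 0.266 in irradiated knockdown. The groups did not overlap in this ratio, which was highest in untreated WT and lowest in irradiated knockdown. The ratio was not tested, and how many pairs of genes part in this way was not counted. Its value of 0.600 came from irradiated WT library 1, the shallowest library, with 1844 counts of SLC5A3. For irradiation of the knockdown, neither SLC5A3 nor MRPS6 passed its test. The ratio is read between libraries and not as one gene being above the other. How reads of their shared exons were counted is not given in the sources used here.

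SLC6A6, the taurine transporter, showed no such pattern. It was at 31.0 and 39.3 CPM in untreated WT (35.1 ± 5.88, n = 2), 34.4 and 34.8 CPM in irradiated WT (34.6 ± 0.322), 38.8 and 57.3 CPM in untreated knockdown (48.0 ± 13.1) and 39.0 and 38.1 CPM in irradiated knockdown (38.5 ± 0.656). Each group overlapped its neighbours in the order of the means. The log2 difference after irradiation of WT was -0.02 (SE 0.293), with an interval of 2 SE on either side from -0.61 to 0.56, and untreated knockdown minus WT was 0.45 (SE 0.293). That genotype difference rested on untreated knockdown library 2, without which it was 0.14.

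NFAT5, the transcription factor of the pathway, was at 29.1 and 37.3 CPM in untreated WT (33.2 ± 5.84, n = 2) and at 39.8 and 47.05 CPM in irradiated WT (43.4 ± 5.11, n = 2). The irradiated WT libraries were both above the untreated ones, by 0.39 on the log2 scale (SE 0.342). In the knockdown NFAT5 was at 17.7 and 30.9 CPM untreated (24.3 ± 9.28, n = 2) and at 22.5 and 30.2 CPM irradiated (26.4 ± 5.48, n = 2). The knockdown groups overlapped each other, and both overlapped untreated WT. Knockdown minus WT was -0.45 untreated (SE 0.343) and -0.72 irradiated (SE 0.344). The untreated value was not stable: it ran from -0.90 without untreated knockdown library 2 to -0.10 without library 1, and was -1.64 without cells above 2 times the median depth of their library. For irradiation of WT, the interval of 2 SE on either side ran from -0.30 to 1.07 for NFAT5. A lower NFAT5 mRNA level in irradiated WT cells was thus neither seen nor excluded. The mRNA level says nothing of the amount or activity of the protein.

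Set against all genes tested, 3 of the 5 genes (AKR1B1, SLC5A3 and MRPS6) had both irradiated WT libraries below both untreated WT libraries, as had 22.1% of all genes; a gap in either direction, as NFAT5 also had, occurred in 44% of all genes. The same 3 genes had both untreated WT libraries above the other 6, as had 10.3% of all genes. SLC5A3 and MRPS6 had all 4 WT libraries above all 4 knockdown libraries, as had 8.86%. AKR1B1, SLC5A3 and MRPS6 were more than 2-fold lower both in irradiated WT and in untreated knockdown than in untreated WT, as were 6% of all genes. Both comparisons use the same untreated WT libraries. Nothing is read from these shares, since the WT libraries chose the genes. At an adjusted p below 0.05, edgeR called 1.65% of all genes for irradiation of WT, 9.94% for knockdown against WT untreated and 5.1% for knockdown against WT irradiated.

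**Figure D2:**
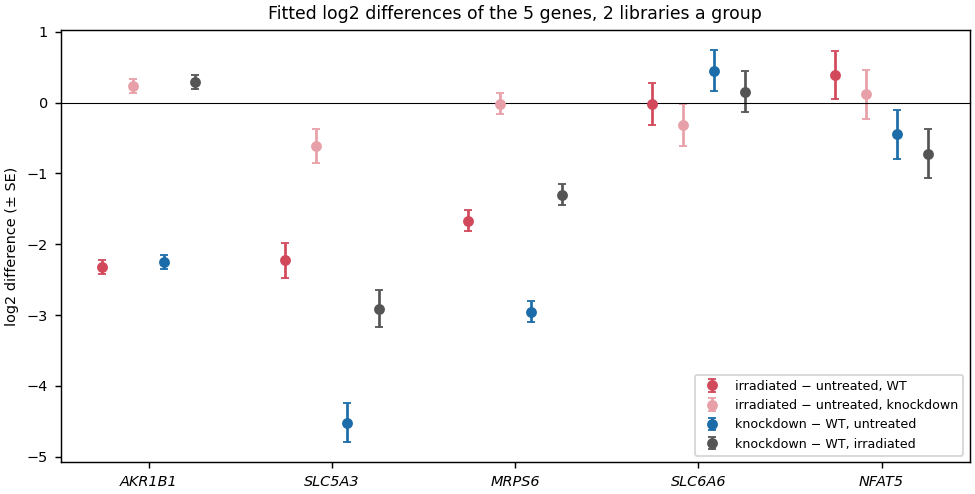
Fitted log2 difference of each gene (vertical axis, points with bars of 1 SE) for irradiated minus untreated in WT and in the knockdown, and for knockdown minus WT in untreated and in irradiated cells. AKR1B1, SLC5A3 and MRPS6 lie at -2.32, -2.23 and -1.66 for irradiation in WT and at 0.23, -0.62 and -0.01 in the knockdown.

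Irradiation of the knockdown cells was the comparison that had not chosen the genes, and it asks whether their low levels moved further. AKR1B1 was higher by 0.23 on the log2 scale (SE 0.0974, interval of 2 SE from 0.03 to 0.42) and did not pass the test (adjusted p = 0.493, edgeR's quasi-likelihood test). Both irradiated libraries of AKR1B1 lay above both untreated ones. SLC5A3 was lower by 0.62 (log2 difference -0.62, SE 0.243, interval -1.10 to -0.13) and did not pass (adjusted p = 0.457, same test), with both irradiated libraries below both untreated ones. MRPS6 differed by -0.01 (SE 0.142, interval -0.30 to 0.27, adjusted p = 0.999, same test). SLC6A6 differed by -0.32 (SE 0.292, interval -0.90 to 0.27, adjusted p = 0.818) and NFAT5 by 0.12 (SE 0.343, interval -0.57 to 0.80, adjusted p = 0.972).

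Thus 0 of the 5 genes were called in the knockdown, where edgeR called 0.225% of all genes. At an unadjusted p below 0.05 the count was 2 of 5 (AKR1B1 and SLC5A3) by edgeR, against 8.86% of all genes, 1 of 5 by DESeq2's Wald test and 2 of 5 by limma, and each of these tools called 0 of 5 after adjustment. Groups did not overlap for 2 of the 5 genes, as for 39.6% of all genes. The value of SLC5A3 passed with no filter on low counts (log2 difference -0.63, adjusted p = 0.0105). Without untreated knockdown library 2, whose ATM level was in the WT range, irradiation of the knockdown gave 0.28 for AKR1B1, -0.83 for SLC5A3 and -0.05 for MRPS6. NFAT5 turned with the libraries, from -0.24 without untreated knockdown library 1 to 0.56 without library 2. SLC6A6 was at -0.02 without untreated knockdown library 2 and at -0.59 without library 1.

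The difference between the 2 irradiation effects, knockdown minus WT, was 2.55 for AKR1B1 (SE 0.140), 1.61 for SLC5A3 (SE 0.341) and 1.65 for MRPS6 (SE 0.202) on the log2 scale. For SLC6A6 it was -0.30 (SE 0.414) and for NFAT5 -0.27 (SE 0.484). These are descriptions too, because they hold the WT difference that chose the genes. Among irradiated cells, AKR1B1 was 1.23-fold higher in the knockdown than in WT (log2 difference 0.30, SE 0.0975), while SLC5A3 and MRPS6 stayed below WT. AKR1B1 was thus at about the same level in irradiated WT and in untreated knockdown cells. SLC5A3 and MRPS6 were lower in untreated knockdown than in irradiated WT cells. Without untreated knockdown library 2 the untreated genotype differences were -2.31 for AKR1B1, -4.32 for SLC5A3 and -2.92 for MRPS6.

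Single cells show how widely each level was shared. To compare cells of unequal depth, each was thinned at random to 50000 counts, so that 1 count equals 20 CPM. This left 341 cells, with 22 too shallow. AKR1B1 was detected in 100% of cells in every library. Its median over cells was 7020 and 6920 CPM for untreated WT, 1080 and 1100 CPM in irradiated WT, 1210 and 1400 CPM in untreated knockdown, and 1500 and 1660 CPM in irradiated knockdown. Nearly every untreated WT cell stood high: 45 of 45 cells of library 1 and 44 of 47 of library 2 lay above 1660 CPM, the highest median of the other 6 libraries. Levels still varied within a library, and the 10th percentile of untreated WT cells was as low as 2276 CPM, while the 90th percentile of the other libraries was at most 3376 CPM.

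**Figure D3:**
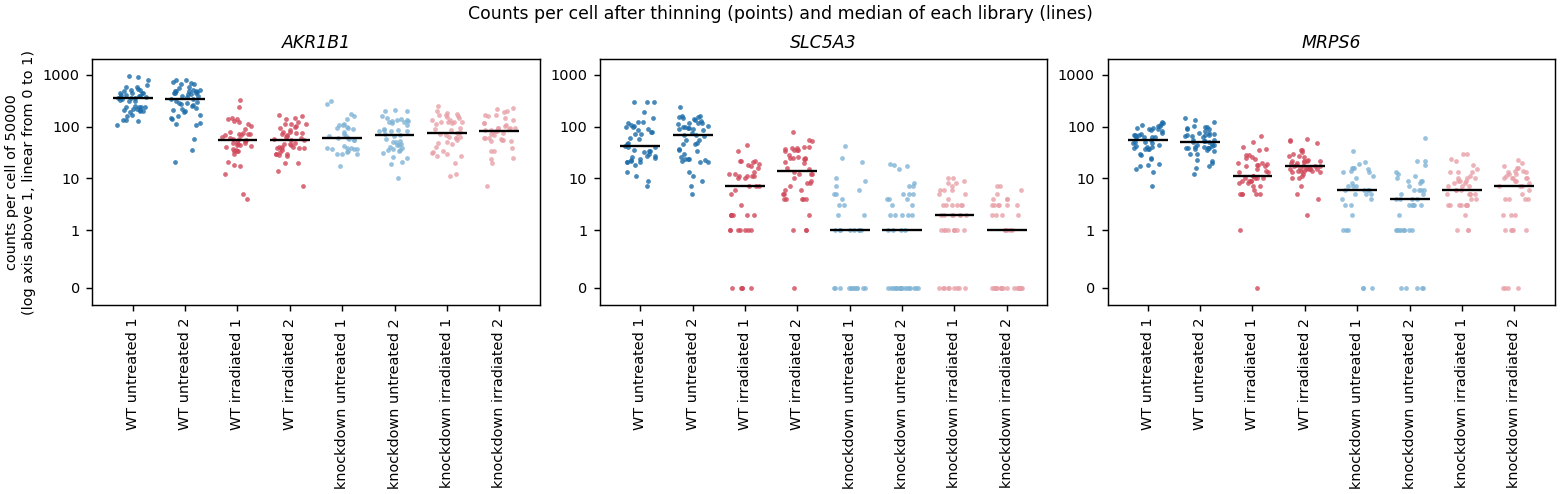
Counts of AKR1B1, SLC5A3 and MRPS6 in each cell after thinning to 50000 counts (vertical axis, logarithmic above 1 count and linear from 0 to 1), by library; points are cells and lines library medians. Nearly all untreated WT cells lie above the medians of the other libraries, and many knockdown cells have a count of 0 for SLC5A3.

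SLC5A3 was detected in 100% of thinned cells of both untreated WT libraries and in 88.4% and 97.8% of irradiated WT cells. In the knockdown it was detected in 64.7% and 57.1% of untreated and in 79.1% and 53.7% of irradiated cells. Without thinning the shares were 97.9% and 100% in irradiated WT, 73.2% and 75.0% in untreated knockdown, and 95.3% and 67.4% in irradiated knockdown. The irradiated knockdown libraries thus differed from each other more than the 2 knockdown groups did. Median SLC5A3 was 840 and 1360 CPM in untreated WT, 140 and 280 CPM in irradiated WT, and 20 to 40 CPM in the knockdown libraries, which is 1 or 2 counts and too few to rank them. In untreated WT, 41 of 45 and 42 of 47 cells were above 280 CPM, the highest median of the other libraries.

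MRPS6 was detected in at least 88.1% of thinned cells in every library. Its medians were 1120 and 1020 CPM in untreated WT, 220 and 340 CPM in irradiated WT, 120 and 80 CPM in untreated knockdown and 120 and 140 CPM in irradiated knockdown. In untreated WT, 41 of 45 and 44 of 47 cells were above 340 CPM, the highest median elsewhere. SLC6A6 was detected in 48.9% to 69.8% of thinned cells over the 8 libraries and NFAT5 in 28.6% to 54.3%. Without thinning these ranges were 63.4% to 93.0% for SLC6A6 and 38.6% to 77.1% for NFAT5. NFAT5 was detected in 35.3% and 28.6% of thinned untreated knockdown cells and in 40.0% and 53.2% of untreated WT cells. These shares rest on about 1 count per cell, so no order is read from them.

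Across the cells of a library, SLC5A3 and MRPS6 had a positive rank correlation in WT. Spearman's rho over the thinned cells was 0.52 and 0.46 in untreated WT and 0.67 and 0.38 in irradiated WT. It was 0.29 and 0.20 in untreated knockdown and 0.04 and -0.03 in irradiated knockdown, where SLC5A3 had few counts. AKR1B1 and MRPS6 gave 0.41 and 0.29 in untreated WT, 0.52 and 0.47 in irradiated WT, 0.10 and 0.25 in untreated knockdown and 0.25 and 0.06 in irradiated knockdown. AKR1B1 and SLC5A3 gave 0.30 and 0.28 in untreated WT, 0.61 and 0.27 in irradiated WT and between -0.05 and 0.12 in the knockdown. The cells of a library (34 to 47 after thinning) share its preparation, and at few counts per cell a low rho is no finding. No pairs of other genes were set beside these, so a high rho has no reference. Reads of the exons shared by SLC5A3 and MRPS6 may enter their rho, which was not tested.

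Other genes of the pathway come from lists written from textbook knowledge, given here without the 5 genes. The lists were written with earlier results of these data known. All comparisons but irradiation of the knockdown use the WT libraries that chose the 5 genes, so their counts are not independent of that choice. Of 11 further NFAT5 targets, 7 were tested. For irradiation, 0 of 7 were called in WT and 0 of 7 in the knockdown by edgeR; at an unadjusted p below 0.05 the counts were 3 and 0 (13.9% and 8.86% of all genes), DESeq2's Wald test called 0 and 0, and limma 1 and 0. Their median log2 difference was -0.56 in WT, beside -0.01 over all genes, and -0.07 in the knockdown, beside 0.01. Between genotypes, 4 of 7 fell in the untreated knockdown (5.11% of all genes were called lower), with a median of -1.03. SLC38A2, a transporter of neutral amino acids, fell from 601 and 423 CPM to 157 and 222 CPM (log2 difference -1.43, SE 0.205, adjusted p = 0.000465). S100A4, a calcium-binding protein that is also among the markers of the line above, fell from 5064 and 6648 CPM to 3046 and 2983 CPM (log2 difference -0.96, SE 0.117, adjusted p = 0.000128). PNPLA6, which makes the osmolyte glycerophosphocholine, fell by 1.03 on the log2 scale (adjusted p = 0.0171, and 0.102 without untreated knockdown library 1). The water channel AQP1 fell by 3.78 (adjusted p = 0.0294). Single cells held 41.9% to 100% of the AQP1 counts of a library, and its call was lost without untreated WT library 2 (adjusted p = 0.0592) or untreated knockdown library 2 (0.0641).

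Among irradiated cells, 3 of these 7 targets fell in the knockdown (2.92% of all genes were called lower), with a median of -0.46. They were SLC38A2 (log2 difference -1.11, adjusted p = 0.00518), S100A4 (-0.62, adjusted p = 0.00604) and AQP1 (-4.43, adjusted p = 0.0300, but 0.148 without irradiated WT library 2 and 0.098 without irradiated knockdown library 2). Like SLC5A3, these 3 genes were lower in the knockdown both with and without irradiation, and none of them passed the test for irradiation of WT (adjusted p = 0.193 for SLC38A2, 0.587 for S100A4 and 0.484 for AQP1). SLC6A12, the betaine transporter and a further NFAT5 target named here after its values were seen, had 251 counts in 10 cells and 20 counts in 2 cells of the untreated WT libraries and 0 counts in the other 6. It did not pass the test for irradiation of WT (adjusted p = 0.139) or for knockdown against WT untreated (0.0514), and no fold is given, since library 1 at 10.4 CPM and library 2 at 1.03 CPM lay far apart. One cell held 45.0% of the counts in library 1 and one held 95.0% in library 2.

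**Figure D4:**
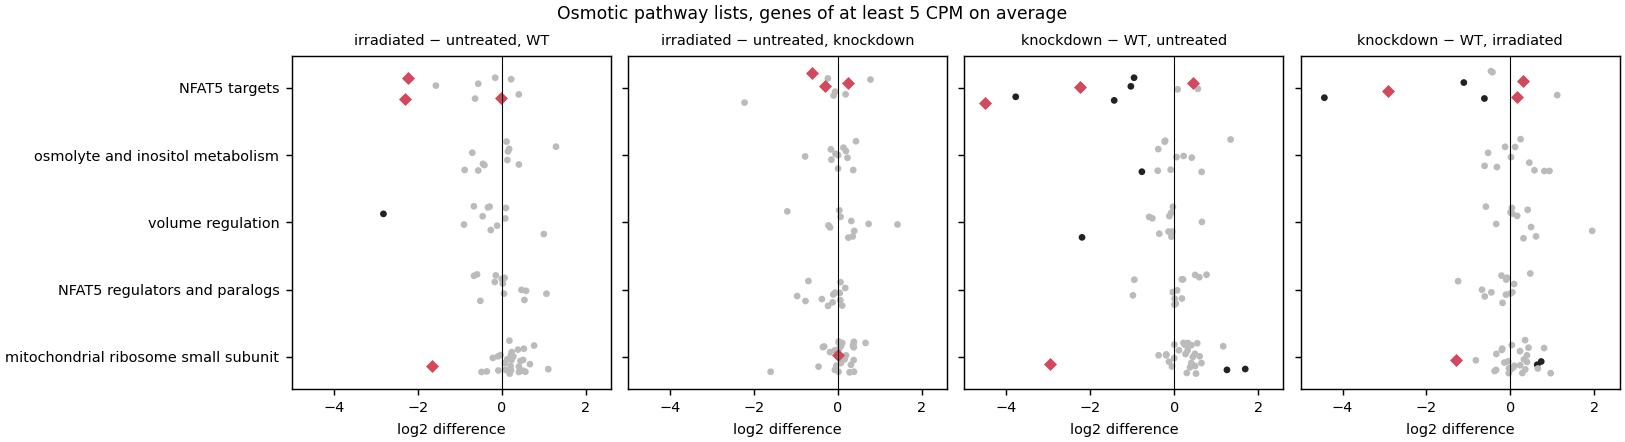
Log2 difference (horizontal axes) of the genes of 5 lists (rows) of at least 5 CPM on average in the 4 comparisons (panels); red diamonds are genes described above, black points other genes past an adjusted p of 0.05, and grey points genes that did not pass. AKR1B1, SLC5A3 and MRPS6 lie at the low end of their lists for irradiation in WT, at -2.32, -2.23 and -1.66, and near 0 or closer to it in the knockdown.

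The remaining lists had few calls. Of 16 tested genes of osmolyte and inositol metabolism, SLC44A1, a choline transporter, fell in the untreated knockdown, 1 of 16 where 5.11% of all genes were called lower (log2 difference -0.77, adjusted p = 0.0383), a call lost without untreated WT library 1 (0.107), untreated WT library 2 (0.0674) or untreated knockdown library 2 (0.248). Its list had 0 calls for irradiation in WT or in the knockdown by edgeR, DESeq2 or limma, with 3 and 0 at an unadjusted p below 0.05 (13.9% and 8.86% of all genes), and medians of -0.43 and 0.06. AKR1A1, the aldehyde reductase related to AKR1B1, was at 71.9, 77.7, 83.9 and 83.9 CPM in the 4 group means, and ALDH7A1, which can make betaine, at 82.9, 93.3, 63.7 and 60.9 CPM (untreated WT, irradiated WT, untreated knockdown, irradiated knockdown), and neither passed any of the 4 tests. Of 14 volume regulation genes, AQP3, a channel for water and glycerol, fell in irradiated WT from 37.3 and 20.6 CPM to 2.79 and 5.29 CPM (log2 difference -2.82, adjusted p = 0.0376, where 0.739% of all genes were called lower) and in untreated knockdown to 3.68 and 8.92 CPM (log2 difference -2.20, adjusted p = 0.0328). The irradiation call of AQP3 was lost without untreated WT library 1 (0.193), irradiated WT library 1 (0.159) or library 2 (0.081), and the knockdown call without untreated WT library 1 (0.247) or untreated knockdown library 1 (0.155). The cell with most AQP3 held 12.4% to 50.3% of the AQP3 counts of its library. Irradiated WT library 1 had 25 AQP3 counts in 9 cells. LRRC8A, a subunit of the volume-regulated anion channel, and the kinases WNK1 and OXSR1 passed none of the 4 tests.

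Of 15 tested regulators and paralogs of NFAT5, 0 passed any of the 4 tests by edgeR. At an unadjusted p below 0.05 the counts were 2, 0, 3 and 1 (irradiation of WT, of knockdown, knockdown against WT untreated, and irradiated; 13.9%, 8.86%, 23.7% and 18.5% of all genes), DESeq2 called 0, 0, 1 and 0, and limma 0, 1, 2 and 1. RAC1, PARP1 and DHX9, which have been described upstream of or bound to NFAT5, had WT irradiation differences of 0.06, 0.46 and 0.54 with adjusted p of 0.894, 0.358 and 0.189. For MRPS6, the other 31 tested proteins of the mitochondrial small subunit give the setting. Their median was 0.22 for irradiation of WT, 0.07 for irradiation of the knockdown, 0.37 for knockdown minus WT untreated and 0.23 irradiated, where MRPS6 stood at -1.66, -0.01, -2.95 and -1.30. None of these 31 was called lower in the 4 comparisons by edgeR, and 0 were called for irradiation of WT or of the knockdown (7 and 3 at an unadjusted p below 0.05, 1 and 0 by DESeq2, 0 and 0 by limma). MRPS18C rose by 1.26 (adjusted p = 0.000744) and MRPS25 by 1.69 (adjusted p = 0.00185) in the untreated knockdown, where 4.83% of all genes were called higher. MRPS33 rose by 0.73 (adjusted p = 0.0192) and MRPS5 by 0.64 (adjusted p = 0.0459) in the irradiated knockdown, where 2.18% of all genes were called higher, and each of these 2 calls was lost without any 1 of the 4 irradiated libraries, with adjusted p of 0.0563 to 0.127 for MRPS33 and 0.147 to 0.225 for MRPS5. MRPS10 and AURKAIP1 passed none of the tests.

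Genes near the 2 loci were examined in the same way, within 500 kb. Around AKR1B1, 5 of 7 neighbours were tested and 0 of 5 were called for irradiation in WT by edgeR, DESeq2 or limma (1 at an unadjusted p below 0.05), where edgeR called 1.65% of all genes and 13.9% had an unadjusted p below 0.05, with log2 differences from -0.71 to -0.13. CALD1, an actin-binding protein gene, fell by 0.72 in the untreated knockdown (1 of 5 called, beside 9.94% of all genes; adjusted p = 0.0129, and 0.095 without untreated knockdown library 1). SLC35B4 and EXOC4 passed none of the 4 tests. Around SLC5A3 and MRPS6, 9 of 10 neighbours were tested and 0 of 9 were called for irradiation in WT by the same 3 tools (1 at an unadjusted p below 0.05), beside the same 1.65% and 13.9% of all genes. At these shares a count of 0 among so few neighbours is near the background. In the untreated knockdown 3 of 9 were called, beside 9.94% of all genes: SON, a splicing factor, rose by 0.86 (adjusted p = 0.0011), and ITSN1, an endocytic scaffold, rose by 0.94 (adjusted p = 0.0465), while ATP5O, a subunit of ATP synthase, fell by 1.20 untreated (adjusted p = 0.000465) and by 1.31 irradiated (adjusted p = 0.000486). The ITSN1 call was lost without untreated WT library 2 (0.235), untreated knockdown library 1 (0.0514) or library 2 (0.0998). Low levels in irradiated WT cells were thus seen in SLC5A3 and MRPS6 and in no tested neighbour past the threshold, and whether the pair differed from the neighbours was not tested.

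**Figure D5:**
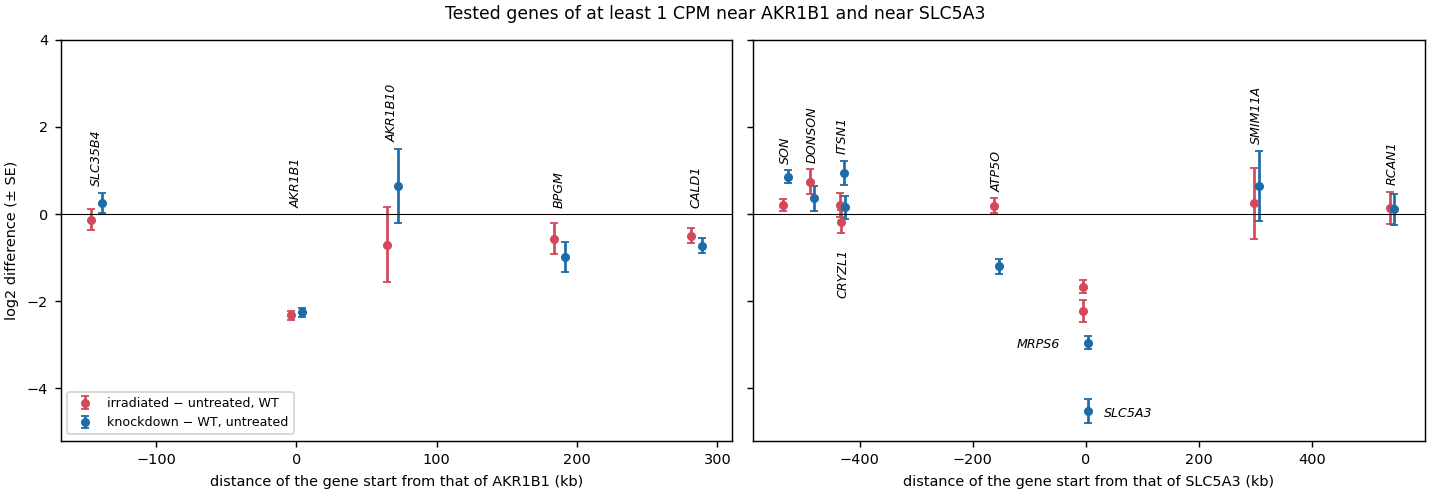
Log2 difference (vertical axis, points with bars of 1 SE) of tested genes of at least 1 CPM by the distance of their start from that of AKR1B1 (left) or SLC5A3 (right) in kb, for irradiated minus untreated WT and for untreated knockdown minus untreated WT; EXOC4, whose start lies at -1206 kb from that of AKR1B1, lies outside the plot. SLC5A3 and MRPS6 start at 0 and -0.346 kb and lie at -2.23 and -1.66 for irradiation, and their neighbours between -0.17 and 0.75.

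Likeness of profile was measured by the root mean square difference of log2 CPM over the 8 libraries, after centring each gene, among 5030 other genes of at least 5 in average log2 CPM. The profiles nearest to AKR1B1 were those of HSPH1 (0.409), a heat shock chaperone, ETV1 (0.411), an ETS transcription factor, ANTXR2 (0.441), an anthrax toxin receptor, NADK2 (0.442), a mitochondrial NAD kinase, and PLOD2 (0.450), a collagen lysyl hydroxylase. Of the genes described here, MRPS6 was 66th from AKR1B1, at 0.635, and SLC5A3 4847th, at 1.42, so SLC5A3 was among the least like it by this measure, which counts the size of each difference as well as its direction. The profiles nearest to SLC5A3 were those of the organic anion transporter SLCO4A1 (0.635), AGFG2 (0.648), the aldo-keto reductase AKR1C1 (0.752), the calcium-binding S100A2 (0.779) and CD14 (0.834), a co-receptor for lipopolysaccharide, with MRPS6 next at 0.860 and AKR1B1 65th at 1.42. From MRPS6, AKR1B1 was 49th and SLC5A3 251st. These genes were picked for their levels, so their differences describe them: AKR1C1 stood at 593, 90.3, 65.3 and 33.6 CPM in the 4 group means (untreated WT, irradiated WT, untreated knockdown, irradiated knockdown), and HSPH1 at 456, 192, 166 and 193 CPM.

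Marker sums and the mitochondrial share were set beside the untreated WT level of AKR1B1, SLC5A3 and MRPS6. Having both untreated WT libraries above the other 6 was not particular to these genes, since 10.3% of all genes did. The endothelial markers summed to 19.9 and 32.9 CPM in untreated WT and to no more than 6.18 CPM in the other 6 libraries, nearly all of it PECAM1, with VWF and CDH5 each at 0 in 7 of 8 libraries. The summed leukocyte markers (2 of 5 listed) reached at most 1.79 CPM, the fibroblast markers 6.02 to 22.9 CPM without setting untreated WT apart from irradiated knockdown, and none of the 4 embryonic kidney line markers was listed. Mitochondrial genes took 9.36% to 10.3% of counts in WT and 10.2% to 11.96% in knockdown libraries. The part of these measures in the levels of the 5 genes was not tested. Leaving out cells above 2 times the median depth of their library gave -2.38, -2.22 and -1.69 for irradiation of WT and -2.18, -4.70 and -3.07 for knockdown minus WT untreated in AKR1B1, SLC5A3 and MRPS6, so these differences were about as large without the largest cells.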

How the data were processed

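Single-cell mRNA was measured in 8 libraries of 4 groups. The values are whole-number counts per coding gene and cell, made and deposited by the authors with Trimmomatic 0.36, HISAT2 2.1.0, HTSeq 0.9.1 and the build hg38, per the submitters' processing notes. Strand use, the counting mode for overlapping genes, the annotation version and the use of unique molecular identifiers are not given in the sources used here; 15031 of 15041 gene IDs were found in GENCODE 29. A gene not listed in a table was taken as 0.

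The kept cells' counts were added up within each library, scaled by TMM, filtered with filterByExpr and fitted in edgeR 4.0.16 (quasi-likelihood test, 4 groups in 1 fit, Benjamini-Hochberg over 12456 genes, threshold 0.05). Log2 CPM for likeness used a prior count of 2. DESeq2 1.42.0 and limma 3.58.1 (on log2 of mean CPM per cell + 1) were alternatives, and the code was tested on simulated data. Cells were thinned with a fixed seed; cells are not replicates. Doublets were not called, since cells were picked singly.

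The 5 genes and the lists were chosen with earlier results of these data known. Named genes were all 5 in every comparison, of each list and locus those past the threshold (at most 8) and the 3 of highest average CPM, and the 5 profiles nearest to AKR1B1 and to SLC5A3. Genotype comparisons of the 5 genes use the WT libraries that chose them and have no test.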

Additional observations from a re-analysis of the deposited data

How the results depend on the processing

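For AKR1B1, SLC5A3 and MRPS6, the WT irradiation difference and the untreated genotype difference kept their direction under every alternative run (scaling, filters, tools, cell filters, each library left out). With each library left out, the WT irradiation difference ran from -2.41 to -2.24 for AKR1B1, -2.80 to -1.82 for SLC5A3 and -1.81 to -1.53 for MRPS6. No paired analysis was possible because the labels carry no replicate numbers shared between the groups. Over all libraries, depth limits SLC6A6 and NFAT5 most, at 275 to 1047 counts a library. In the knockdown libraries it limits SLC5A3 in a like way, at 759 to 1114 counts.

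The number of genes past the threshold moved most. For irradiation of WT it was 205, against 534 with no filter, 322 at an average log2 CPM of at least 5, 569 by DESeq2, 33 with the 4 WT libraries alone and 130 without the largest cells, and 89 (without irradiated WT library 2) to 376 (without untreated knockdown library 1) with each library left out. For irradiation of the knockdown it was 28, against 236, 178 by DESeq2, 122 by limma, 65 with the 4 knockdown libraries alone and 68 without the largest cells, where 236 is with no filter; with each library left out it was 44 (without irradiated knockdown library 1) to 142 (without untreated WT library 2). For knockdown against WT irradiated it was 635, against 1044 with no filter and 1088 by DESeq2, and 308 (without irradiated knockdown library 2) to 980 (without untreated WT library 2). For the difference of the irradiation effects it was 23, against 195 with no filter, 45 at average log2 CPM 5 or above and 135 by DESeq2, and 31 (without irradiated knockdown library 2) to 128 (without untreated WT library 1). The causes were not tested.

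For irradiation of the knockdown, SLC5A3 passed with no filter (-0.63, adjusted p = 0.0105; over the other alternatives its adjusted p reached 0.839). MRPS6 turned to 0.16 by limma and to 0.18 without the largest cells, and ran from -0.099 to 0.061 with each library left out. SLC6A6 turned to 0.21 without the largest cells. NFAT5 ran from -0.24 to 0.56 with each library left out and stood at 1.03 without the largest cells. Without the largest cells, MRPS6 was -3.07 and NFAT5 -1.64 for knockdown minus WT untreated, AKR1B1 0.58 and SLC6A6 0.33 for knockdown minus WT irradiated, and the difference of the effects was 2.76 for AKR1B1, 0.34 for SLC6A6 and 0.90 for NFAT5. SLC6A6 irradiated was 0.23 with no scaling and 0.047 by limma. With each library left out, SLC6A6 ran from -0.20 to 0.16 for irradiation of WT and from -0.56 to 0.01 for the difference of the effects, where NFAT5 ran from -0.62 to 0.18. NFAT5 has no value at an average log2 CPM of at least 5, which it does not reach. The causes were not tested.

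Thinned to 20000 counts, the mean of the library medians was 1162.5 CPM for AKR1B1 in irradiated WT and 0 and 50 CPM for SLC5A3 in untreated and irradiated knockdown. The share of cells with SLC6A6 was 36.2%, 44.3%, 32.1% and 40.7%, and with NFAT5 36.2%, 41.0%, 20.5% and 29.1% (untreated WT, irradiated WT, untreated knockdown, irradiated knockdown), as fewer counts are drawn. Of the values of single genes of the lists and loci, 285 kept their call and 35 lost it, each in the same direction. Without the largest cells, AQP1 (adjusted p = 0.1003 untreated and 0.0968 irradiated), AQP3, MRPS5 and CALD1 lost theirs, SLC44A1 with no scaling (0.0517), AQP3 by limma and with the WT libraries alone, and ITSN1 by limma (0.0513).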
